A study of Mus musculus with 12 samples.

Results

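The insulin-like growth factor (IGF) system was followed through 10 genes in the hippocampal transcriptome of APP/PS1 mice. These were the ligands Igf1 and Igf2, the binding proteins Igfbp2, Igfbp4, Igfbp5, Igfbp6 and Igfbp7, and the receptors Igf1r, Igf2r and Insr. They were taken by symbol from a table of read counts for 55573 genes, of which 14008 passed the filter on low counts, all 10 members among them. Whole right hippocampi came from C57BL/6J mice aged 4.5 months, with 1 library per animal. The 4 APP/PS1 females and 4 APP/PS1 males carried the APPSwe/PS1dE9 transgene, which includes a mutated chimeric mouse/human APP and is expressed from a prion promoter element. The WT groups held 2 females and 2 males of the same strain and age without the transgene. The tissue was taken whole, so each library is a mixture of all cells in the dissected piece.

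IGF1 and IGF2 are small secreted peptides related to insulin. Both act mainly through the tyrosine kinase encoded by Igf1r, insulin acts through the related kinase encoded by Insr, and the mannose-6-phosphate receptor encoded by Igf2r takes up IGF2 for degradation. The binding proteins hold the ligands outside the cell and set how much reaches the receptors. In the brain, Igf1 is known from microglia and some neurons, Igf2 and Igfbp2 are abundant in the choroid plexus and meninges, and Igfbp7 is a gene of blood vessels.

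Total counts were 36714316 to 50643565 per library. Levels are given below in CPM, read counts relative to the size of the library after upper-quartile scaling. In 3 of the 12 libraries Ttr, the transthyretin gene that marks the choroid plexus, stood at 3530 to 6362 CPM, against 2.69 to 18.3 CPM in the other 9. They are called Ttr-rich below and were WT female 2, APP/PS1 male 2 and APP/PS1 female 1, and all 18 choroid plexus markers were higher in each of them than in any other library. The App and Prnp rows did not separate the genotypes. App stood at 1540 to 1659 CPM in APP/PS1 against 1550 to 1716 CPM in WT libraries, so the transgene could not be checked from these rows, and whether its reads were counted there was not tested. Cst7, a gene of plaque-associated microglia, was at 6.04 to 14.9 CPM in the 8 APP/PS1 libraries and at 0.0263 to 0.106 CPM in the 4 WT libraries.

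Per length of exon, the binding proteins were the most abundant members and the ligands the least. Normalized CPM per kilobase of exon (RPKM) placed Igfbp5 first with a median of 33.1 over the 12 libraries (range 20.3 to 39.6), above the whole range of Igfbp4, which had a median of 16.6. Igfbp4, Igfbp7, Igfbp6 and Igfbp2 followed with medians of 16.6, 12.97, 10.8 and 9.22 RPKM, and the ranges of neighbours in this order overlapped. Igf2r, Insr and Igf1r stood at medians of 5.31, 4.39 and 3.84 RPKM. Their ranges overlapped, but that order was the same within each of the 12 libraries. Igf1 was lower than every receptor, with a median of 1.47 RPKM (1.07 to 1.92), and Igf2 was lowest at 0.159 RPKM (0.0672 to 0.835). Across libraries Insr varied least, with a coefficient of variation of 3.37% in CPM, and Igf2 and Igfbp2 varied most, at 90.0% and 106%.

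**Figure D1:**
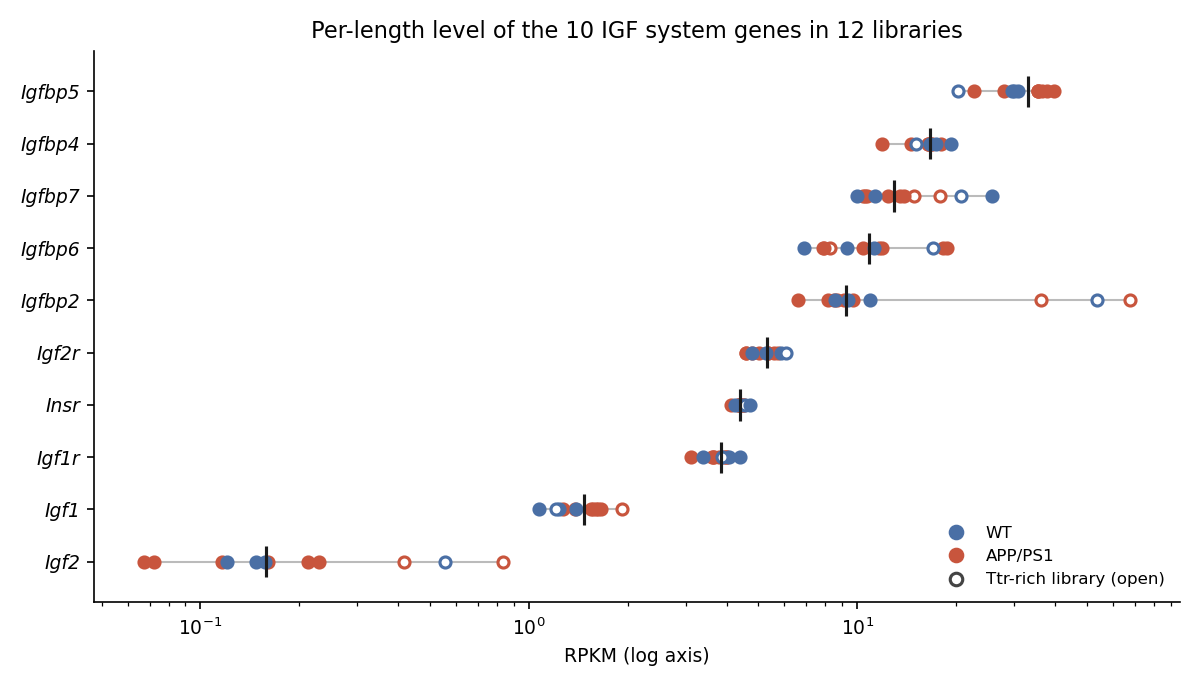
Level of each of the 10 genes per exon length (RPKM, log axis) in the 12 libraries, ordered by median. Points are libraries, vertical ticks are medians, blue is WT, red is APP/PS1 and open points are the 3 Ttr-rich libraries. The spread of Igfbp2 and Igf2 comes from the open points, while the 3 receptors lie in narrow bands between 3.11 and 6.05 RPKM.

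Igf1 was modestly higher in APP/PS1 than in WT hippocampus. Igf1 (ENSMUSG00000020053; GRCm38 chr10:87858265-87937042, plus strand) measured 19.0, 13.7, 16.4 and 15.5 CPM in APP/PS1 females 1 to 4 and 16.1, 15.9, 15.3 and 12.6 CPM in APP/PS1 males 1 to 4. WT females 1 and 2 gave 12.2 and 12.002 CPM, and WT males 1 and 2 gave 13.8 and 10.6 CPM. In females the genotypes did not overlap. With 4 against 2 animals this held for 2 of the 10 members (Igf1 and Igf2r) and for 2684 of 14008 genes (19.2%), so the members' share was near the background. In males APP/PS1 male 4 lay below WT male 1, and 6 of the 8 APP/PS1 libraries lay above every WT library. The mean was 15.6 ± 1.90 CPM (SD, n = 8) against 12.2 ± 1.29 CPM (SD, n = 4). On the log2 scale the difference in means was 0.35. An exact two-sided permutation of the genotype labels gave p = 0.00808, where the smallest possible p was 0.00202.

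In the fit across all genes Igf1 did not pass the threshold. With edgeR's quasi-likelihood test its log2 fold change was 0.32 (SE 0.090, adjusted p = 0.148) averaged over the sexes, 0.38 (SE 0.13, adjusted p = 0.333) in females and 0.26 (SE 0.13, adjusted p = 0.917) in males. None of the 10 members was called averaged over the sexes at a false discovery rate (FDR) under 0.1, beside 266 of 14008 genes (1.9%). Igf1 and Igfbp2 had an unadjusted p under 0.05, beside 1341 genes (9.57%). Igf1 did pass with the likelihood ratio test (adjusted p = 0.0355) and with DESeq2 (adjusted p = 0.0854), and when APP/PS1 female 4 (adjusted p = 0.0956) or WT male 1 (adjusted p = 0.0741) was left out. Its fold change was above 0 under 24 alternative settings (0.25 to 0.42). In a bulk sample, more cells of a type and more RNA per cell cannot be told apart.

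The Ttr-rich libraries did not stand apart in Igf1, which was at 12.002 to 19.0 CPM in them and at 10.6 to 16.4 CPM in the other 9. APP/PS1 female 1, a Ttr-rich library, was the highest of all. Without the 3 libraries, Igf1 was at 12.6 to 16.4 CPM in 6 APP/PS1 animals and 10.6 to 13.8 CPM in 3 WT animals. The log2 difference was then 0.29 (exact permutation p = 0.0595 over 84 splits, smallest possible p 0.0119), and the fitted log2 fold change was 0.26 (SE 0.098, adjusted p = 0.347).

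**Figure D2:**
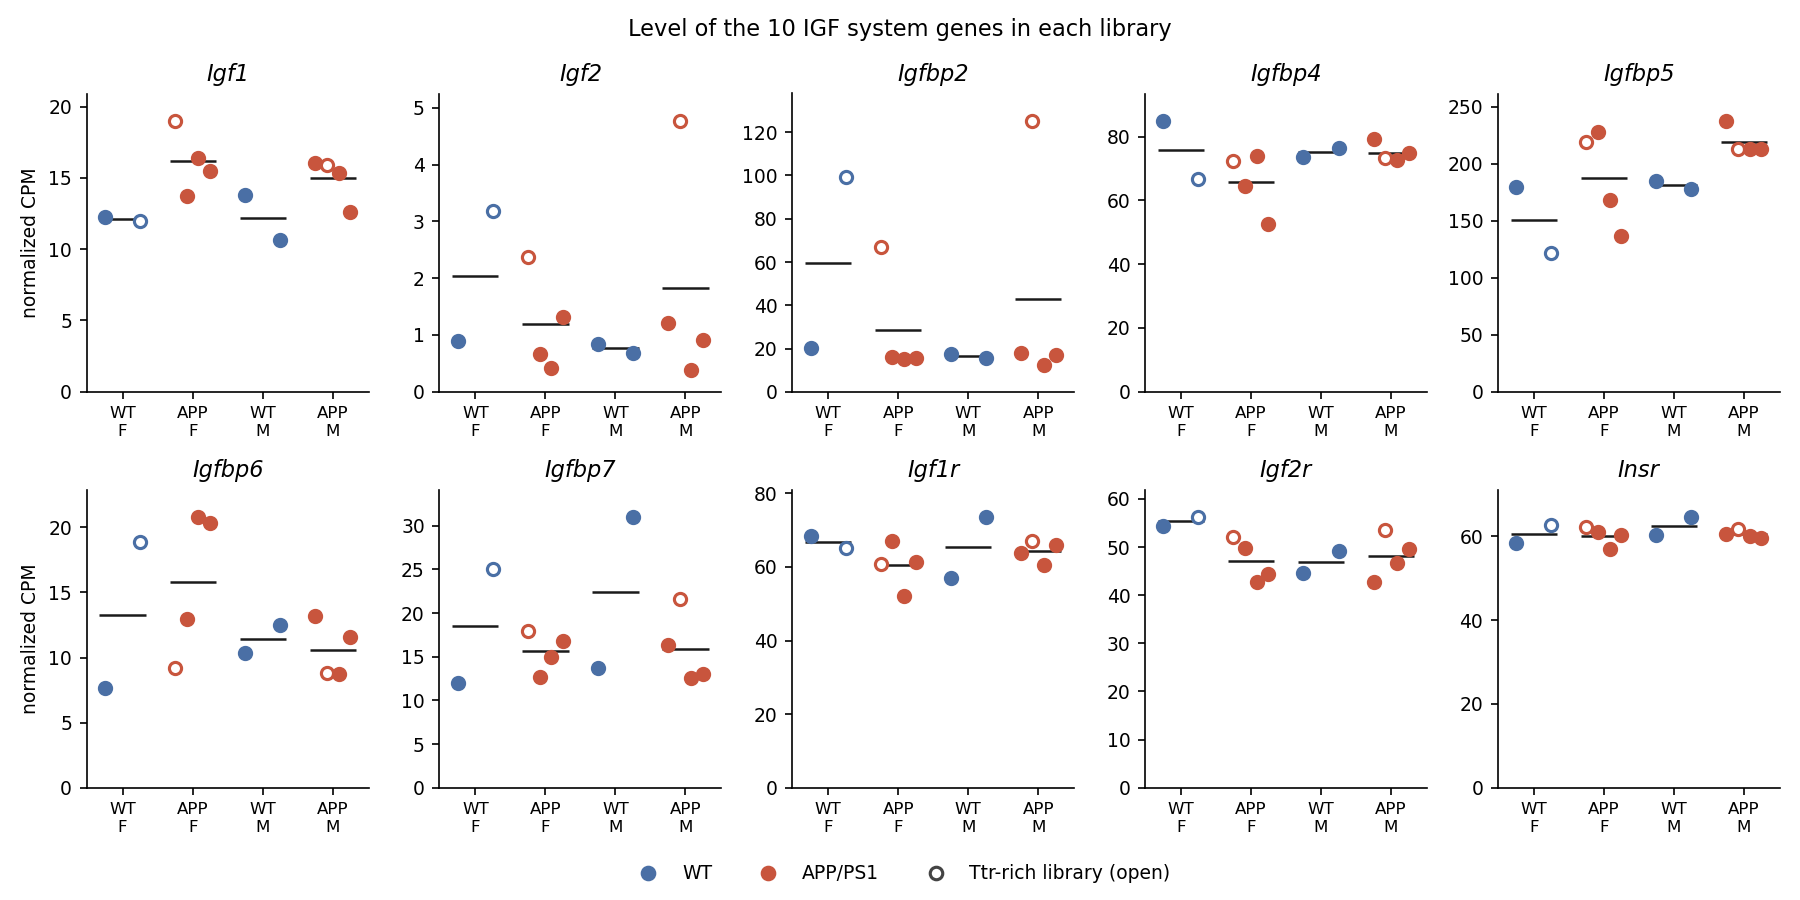
Normalized CPM of each member in every library, by genotype and sex (WT F, APP F, WT M, APP M), each axis starting at 0. Points are libraries in replicate order, open points are the 3 Ttr-rich libraries and bars are group means. The mean of Igf1 is higher in APP/PS1 than in WT in both sexes, and the open points of Igf2 and Igfbp2 lie above all filled points.

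General microglial genes were also higher in APP/PS1 mice, and by more than Igf1. All 16 genes of a general microglial list had positive log2 fold changes averaged over the sexes, with a median of 0.84 against 0.0096 over all genes tested, and 10 were called at an FDR under 0.1. Among them Csf1r, the receptor that microglia need to survive, rose by 0.59 (adjusted p = 0.0629) and Aif1, which encodes IBA1, by 0.77 (adjusted p = 0.0852). The summed level of the 16 genes was 816 to 1384 CPM in APP/PS1 and 522 to 703 CPM in WT libraries, and none of the 16 separated the Ttr-rich from the other libraries. In a list of 15 genes of plaque-associated microglia, 14 were tested and 10 were called, all higher, with a median log2 fold change of 0.99. Both lists were drawn up with earlier results of these data known, so their direction is not independent evidence.

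Set against the general microglial list, Igf1 was lower in APP/PS1 than in WT mice. The log2 CPM of Igf1 minus the mean log2 CPM of the 16 markers was -1.58 ± 0.21 (SD, n = 8) in APP/PS1 and -1.08 ± 0.23 (SD, n = 4) in WT animals. The difference was -0.50 (exact two-sided permutation p = 0.00808), while the marker mean itself differed by 0.85 (p = 0.00202 in the same exact test, the smallest it can give). WT male 2, at -1.41, was the WT library inside the APP/PS1 range of -1.87 to -1.28. The difference was -0.46 without the 3 Ttr-rich libraries (exact permutation p = 0.0357). The markers were listed with earlier results of these data known, so these p-values are not independent evidence. The part of Igf1 from other cells, such as neurons, in this difference was not tested.

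**Figure D3:**
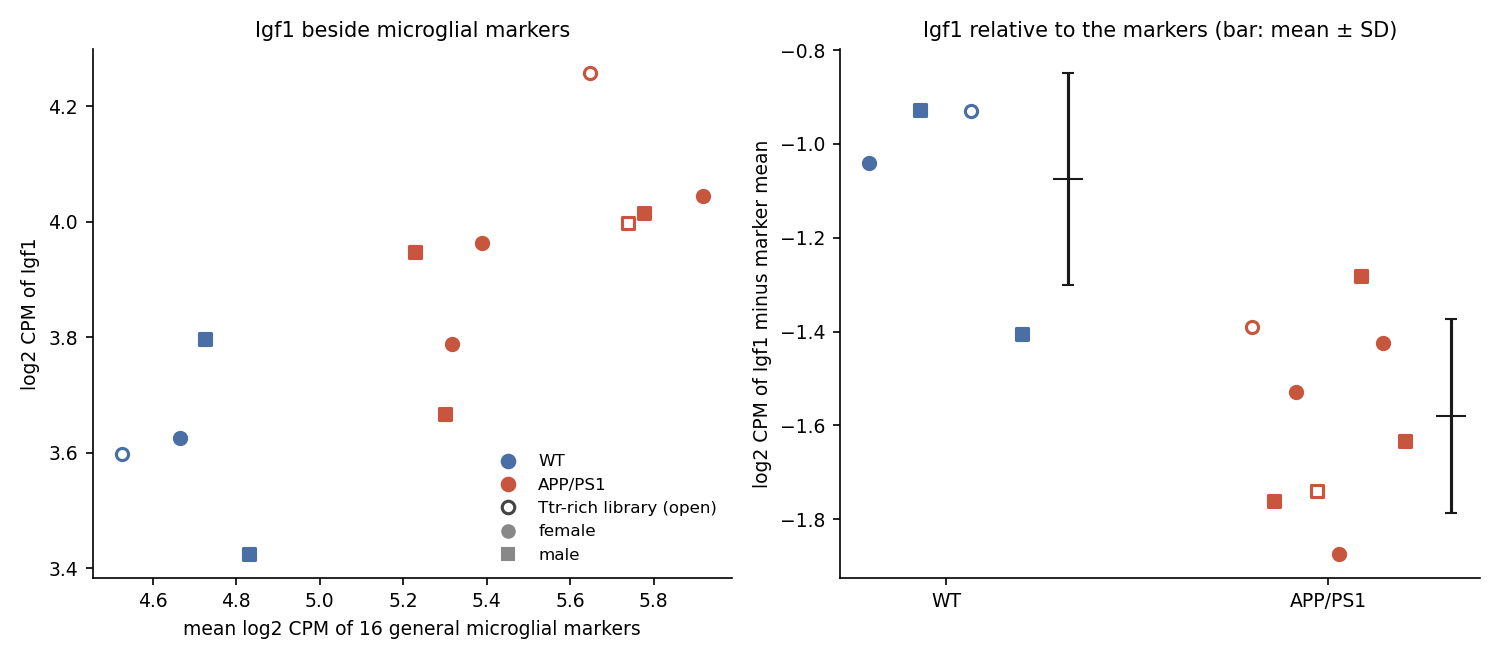
Left, log2 CPM of Igf1 against the mean log2 CPM of 16 general microglial markers in each library (blue WT, red APP/PS1, circles females, squares males, open Ttr-rich). Right, the difference of these values by genotype, with mean ± SD. In the left panel all APP/PS1 libraries lie to the right of the WT libraries, and most but not all lie higher. In the right panel they lie mostly lower (-1.58 ± 0.21 against -1.08 ± 0.23).

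The genes whose pattern over the 12 libraries was most like that of Igf1, by Pearson's r of log2 CPM, were Dpy19l4 (0.93), Tgfbr1 (0.93), Cmtm6 (0.92), C030034I22Rik (0.91) and Gpr34 (0.90). Over the 9 libraries that were not Ttr-rich the same correlations were 0.93, 0.94, 0.95, 0.85 and 0.96. Tgfbr1 encodes a receptor for TGF-beta, and Gpr34 is a G protein-coupled receptor of microglia and a member of the general microglial list. The points share the 2 genotypes and the library scaling, so these values describe likeness only.

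Igf2 and Igfbp2 were high in the 3 Ttr-rich libraries, which come from both genotypes and both sexes. Igfbp2 did not overlap between the Ttr-rich and the other libraries, as 937 of 14008 genes (6.69%) did not. Igf2 did not overlap either, but it passed the filter on low counts only through these 3 libraries and so had to be higher in them. The other 8 members overlapped. The bases before the start sites of Igfbp2 and Igf2 are shown because these 2 members did not overlap between the 2 sets of libraries. For Igf2 this followed from the filter, and shared regulation was not tested. RefSeq start sites were listed for 9 of the 10 members (13 starts, up to 4 for Igf2). Each line gives 250 bases before a start that lie in no annotated exon, which leaves 1 window for Igfbp2 and 2 for Igf2, 5′ to 3′ on the gene's strand, with the GC box GGGCGG in capitals. The Igfbp2 window is chr1:72824230-72824479 (plus strand) and the Igf2 window printed, before the start nearest the gene's 3′ end, is chr7:142657497-142657746 (minus strand), both in GRCm38.p6. The other Igf2 window, chr7:142666817-142667066, is not printed and held no GGGCGG.
Igfbp2: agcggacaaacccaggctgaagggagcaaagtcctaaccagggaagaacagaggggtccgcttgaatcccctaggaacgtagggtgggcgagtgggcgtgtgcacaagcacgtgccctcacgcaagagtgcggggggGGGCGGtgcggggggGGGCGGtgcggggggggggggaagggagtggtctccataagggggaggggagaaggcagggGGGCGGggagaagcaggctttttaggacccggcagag
Igf2: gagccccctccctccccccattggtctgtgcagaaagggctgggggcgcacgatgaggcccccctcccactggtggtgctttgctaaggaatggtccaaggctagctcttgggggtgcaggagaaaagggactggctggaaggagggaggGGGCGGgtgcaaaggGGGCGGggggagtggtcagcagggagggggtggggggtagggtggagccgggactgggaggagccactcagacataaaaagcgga

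The Igfbp2 window held GGGCGG at 3 places, starting 113, 98 and 37 bases before the start, and the printed Igf2 window at 2 places, 100 and 85 bases before it. Over both strands, 32.7% of the 32851 windows of that length in the RefSeq table held this motif. None of these 3 windows held TATAAA (12.4% of windows), GAGGAA, the core motif of the myeloid factor PU.1 (23.3%), or TAATCC, the core motif of OTX factors (6.25%). Among members that overlapped between the Ttr-rich and other libraries, the windows of Igfbp7, Igf2r and Igf1r held GGGCGG at 4, 3 and 2 places. The windows of Igf1, Igfbp4, Igfbp5 and Igfbp6 held no GGGCGG. These matches are descriptions of the letters and not evidence of binding.

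Igf2 (ENSMUSG00000048583; chr7:142650766-142666816, minus strand) measured 2.38, 0.666, 0.414 and 1.31 CPM in APP/PS1 females 1 to 4, and 1.22, 4.78, 0.385 and 0.916 CPM in APP/PS1 males 1 to 4. WT females gave 0.900 and 3.18 CPM, and WT males 0.843 and 0.690 CPM. The Ttr-rich libraries thus held 2.38 to 4.78 CPM and the other 9 held 0.385 to 1.31 CPM, a ratio of medians of 3.78. Of 14 markers of meninges and fibroblasts, 5 were likewise higher in every Ttr-rich than in any other library, although their summed level overlapped (165 to 200 CPM against 129 to 185 CPM), and their part in the Igf2 values was not tested. Only these 3 libraries brought Igf2 past the filter on low counts, so no test exists for it once any of them is left out. Its log2 fold change was -0.13 (SE 0.29, adjusted p = 0.933) averaged over the sexes. The rows were thin, with 17 to 187 reads per library, and Igf2 shares 3596 exon bases with Gm49394 on the same strand, so its level is uncertain where the counting could split or drop shared reads. The genes most like it were Acss3 (Pearson's r 0.95), Mmp2 (0.95), Gpbp1l1 (0.94), Tgfbr3 (0.93) and Slc24a5 (0.93), and over the 9 other libraries r was 0.75, 0.78, 0.88, 0.61 and 0.66. Mmp2 encodes a gelatinase and Tgfbr3 the TGF-beta co-receptor betaglycan.

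Igfbp2 (ENSMUSG00000039323; chr1:72824503-72852474, plus strand) measured 67.1, 16.1, 15.1 and 15.7 CPM in APP/PS1 females 1 to 4, and 17.9, 125, 12.2 and 16.8 CPM in APP/PS1 males 1 to 4. WT females gave 20.2 and 99.4 CPM, and WT males 17.3 and 15.8 CPM. The 3 high values are the Ttr-rich libraries, at 67.1 to 125 CPM against 12.2 to 20.2 CPM in the other 9, a ratio of medians of 6.19. The summed level of the 18 choroid plexus markers was 5880 to 10508 CPM in the same 3 libraries and 143 to 204 CPM in the others, and its part in the Igfbp2 values was not tested beyond the fits given below. Above the median of those 9, Igfbp2 gained 22.8 CPM for each 1000 CPM of Ttr in WT female 2, 17.2 CPM in APP/PS1 male 2 and 14.5 CPM in APP/PS1 female 1. For Igf2 the same gain was 0.641, 0.618 and 0.436 CPM. The genes most like Igfbp2 were Kl, the klotho gene (Pearson's r 0.99), Drc7 (0.99), Trpm3 (0.99), 1500015O10Rik (0.99) and Cdr2 (0.99). Over the 9 other libraries r was 0.75, 0.59, 0.62, 0.65 and 0.71. Kl, which is also on the choroid plexus list, was at 130 to 212 CPM in the Ttr-rich and at 16.2 to 22.7 CPM in the other libraries.

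**Figure D4:**
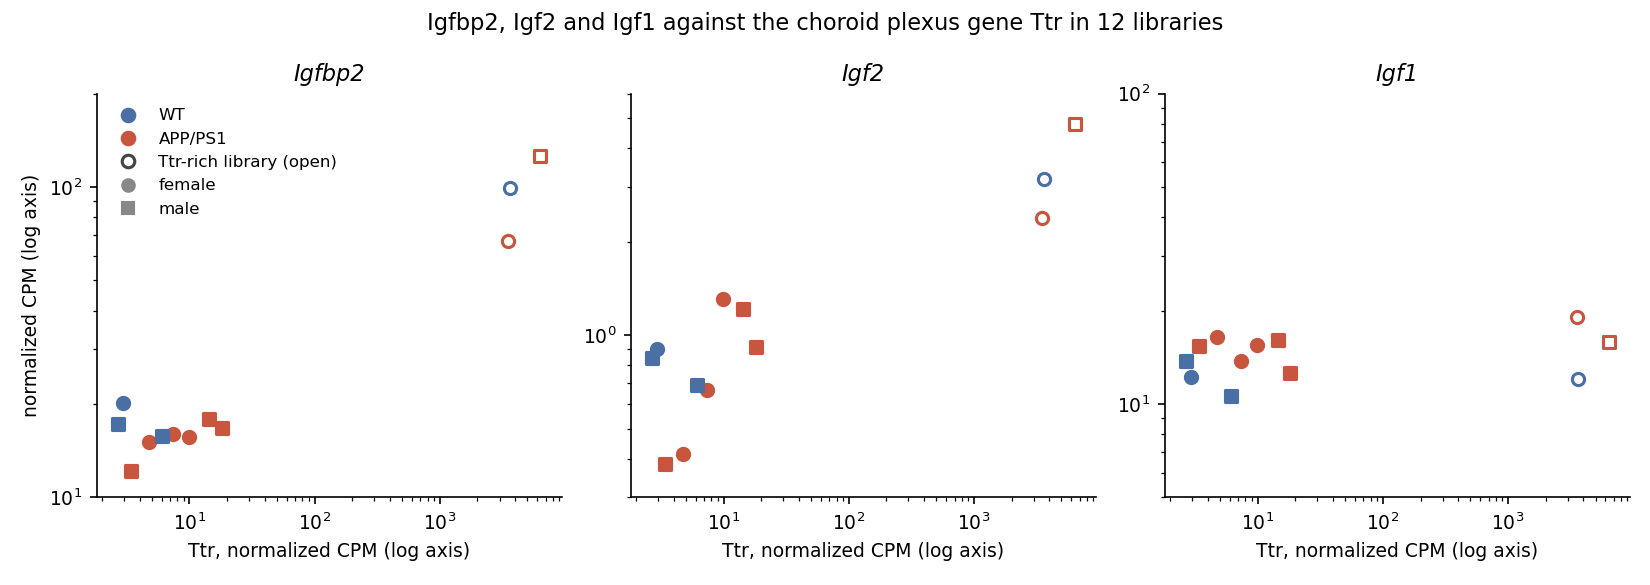
Normalized CPM of Igfbp2, Igf2 and Igf1 against that of Ttr in each library, all on log axes (blue WT, red APP/PS1, circles females, squares males, open Ttr-rich). The 3 open points stand at 67.1 to 125 CPM of Igfbp2 and 2.38 to 4.78 CPM of Igf2, above all filled points, but within the range of the filled points or close to it for Igf1.

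Igfbp2 was the 1 member called in a single sex. In females its log2 fold change was -0.66 (SE 0.11, edgeR adjusted p = 0.0166), where 108 of 14008 genes (0.771%) were called. In males it was 0.15 (SE 0.11, adjusted p = 0.999), where no member was called beside 24 genes (0.171%). Unadjusted p was under 0.05 for Igf1, Igf2r and Igfbp2 in females, beside 1371 genes (9.79%), and for no member in males, beside 799 genes (5.7%). The female effect minus the male effect was -0.81 for Igfbp2 (SE 0.15, adjusted p = 0.771). That edgeR test of the difference called 0 of 14008 genes (0%) with 565 at an unadjusted p under 0.05 (4.03%), and Igfbp2 was the 1 member among these. For the same difference DESeq2 called 9 genes and the likelihood ratio test 15, and both called Igfbp2 (adjusted p = 0.00954 and 8.72e-04).

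Within each sex and for the difference between the sexes, most genes of the choroid plexus list had the same sign as Igfbp2. In females 17 of its 18 genes had negative log2 fold changes, with a median of -0.50 and none called. In males 14 of 18 were positive, with a median of 0.37, and for the difference between the sexes 17 of 18 were negative, with a median of -0.76. For Igfbp2 the average over the sexes was -0.25 (SE 0.075, edgeR adjusted p = 0.181). The list did not share that sign, with 10 of its genes positive and 8 negative, and a median of 0.045. The part of these genes in the Igfbp2 result was not tested beyond the fits that follow.

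The female call for Igfbp2 was kept in 14 of 24 other settings and lost in 10, several of which treat the Ttr-rich libraries differently. It was kept with the likelihood ratio test (adjusted p = 3.45e-07), with DESeq2 (adjusted p = 4.01e-06) and, with edgeR's quasi-likelihood test, without APP/PS1 female 1 (adjusted p = 0.0755). Of the 2 WT females 1 was Ttr-rich, as was 1 of the 4 APP/PS1 females, and the first factor of unwanted variation was 0.45 to 0.55 in the Ttr-rich libraries and -0.28 to -0.072 in the others. Without the 3 libraries the female log2 fold change was -0.37 (SE 0.20, adjusted p = 0.572), with no factor of unwanted variation it was -1.07 (SE 1.12, adjusted p = 0.859), and with the choroid plexus score in place of the factors it was -0.44 (SE 0.13, adjusted p = 0.274). The call was also lost on leaving out APP/PS1 female 2 (-0.62, adjusted p = 0.118), APP/PS1 male 2 (-1.05, adjusted p = 0.669), WT female 1 (-1.38, adjusted p = 0.446) or WT female 2 (-0.37, adjusted p = 0.633). Among the libraries that were not Ttr-rich, 3 APP/PS1 females were at 15.1 to 16.1 CPM and the single WT female at 20.2 CPM. The males overlapped there, at 12.2 to 17.9 CPM in 3 APP/PS1 and 15.8 to 17.3 CPM in 2 WT animals.

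With all 12 libraries and no block for replicate number, the other binding proteins did not pass edgeR's quasi-likelihood test in any contrast. Igfbp5 (ENSMUSG00000026185; chr1:72857932-72874884, minus strand), the most abundant member and the tail-to-tail neighbour of Igfbp2 at a distance of 5457 bases, measured 219, 228, 168 and 136 CPM in APP/PS1 females and 238, 213, 213 and 213 CPM in APP/PS1 males. WT females gave 180 and 122 CPM, and WT males 185 and 178 CPM. In males the genotypes did not overlap, which held for 1 of the 10 members beside 1518 of 14008 genes (10.8%), and in females they did. The log2 fold change averaged over the sexes was 0.33 (SE 0.14, adjusted p = 0.530), and 0.15 (SE 0.15, adjusted p = 0.786) without the Ttr-rich libraries. It was called with the likelihood ratio test (0.33, adjusted p = 0.0858). Adding a block for replicate number to edgeR's quasi-likelihood test also gave a call (0.53, adjusted p = 0.0421). The lowest library, WT female 2, was 1 of the Ttr-rich libraries.

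Igfbp4 (ENSMUSG00000017493; chr11:99041244-99054392, plus strand), which holds IGFs until the protease PAPP-A cleaves it, varied little. It was at 52.5 to 79.3 CPM (median 72.9) in APP/PS1 and 66.7 to 85.0 CPM (median 75.0) in WT libraries, with a log2 fold change of -0.078 (SE 0.086, adjusted p = 0.835). Without the Ttr-rich libraries this was -0.19 (SE 0.071, adjusted p = 0.339).

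Igfbp6 (ENSMUSG00000023046; chr15:102144362-102149511, plus strand), which prefers IGF2 over IGF1, was at 8.73 to 20.8 CPM (median 12.3) in APP/PS1 and 7.65 to 18.9 CPM (median 11.4) in WT libraries. Its highest libraries were APP/PS1 females 3 and 4 and WT female 2, at 18.9 to 20.8 CPM. The log2 fold change was 0.011 (SE 0.34, adjusted p = 0.997). It was 0.58 (SE 0.19, adjusted p = 0.321) without the 3 Ttr-rich libraries and 0.53 without WT female 2 alone, but -0.29 (adjusted p = 0.828) without WT female 1.

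Igfbp7 (ENSMUSG00000036256; chr5:77349240-77408041, minus strand), a low-affinity IGF binder of vessel walls, was at 12.6 to 21.7 CPM (median 15.7) in APP/PS1 and 12.04 to 31.1 CPM (median 19.4) in WT libraries. WT male 2 was highest at 31.1 CPM, followed by the Ttr-rich WT female 2 at 25.1 CPM and APP/PS1 male 2 at 21.7 CPM. The log2 fold change was -0.39 (SE 0.25, adjusted p = 0.679) averaged over the sexes and -0.66 (SE 0.34, adjusted p = 0.964) in males. Without WT male 1, which leaves WT male 2 as the only WT male, it was called averaged over the sexes (-0.66, adjusted p = 0.0173) and in males (-1.18, adjusted p = 0.0131). Without WT male 2 the male value was 0.056. The endothelial genes Cldn5 (35.8 CPM), Pecam1 (21.4 CPM) and Flt1 (77.5 CPM), for tight junction, adhesion and VEGF receptor proteins, were also highest in WT male 2. In all, 5 of the 10 genes on the endothelial list were highest there, while 4 ranked among the lower 6 of the 12 libraries, including Kdr (9.40 CPM) and Itm2a (32.1 CPM), both second lowest. The summed level of the 10 endothelial markers was 323 CPM there, within the 225 to 329 CPM of all 12 libraries, and their part in the Igfbp7 values was not tested. None of the 10 was called in any contrast, where 0% to 1.9% of all genes tested were called.

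The 3 receptors differed little between genotypes. Insr (ENSMUSG00000005534; chr8:3122061-3279617, minus strand) was at 56.8 to 62.2 CPM (median 60.3) in APP/PS1 and 58.3 to 64.7 CPM (median 61.4) in WT libraries, with a log2 fold change of -0.027 (SE 0.043, adjusted p = 0.896). Igf1r (ENSMUSG00000005533; chr7:67952827-68233668, plus strand) was at 52.2 to 67.2 CPM (median 62.6) against 57.1 to 73.7 CPM (median 66.8), with a log2 fold change of -0.067 (SE 0.075, adjusted p = 0.834). These standard errors are small beside those of Igf2, Igfbp6 and Igfbp7, which were 0.25 to 0.34.

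Igf2r (ENSMUSG00000023830; chr17:12682406-12769664, minus strand) measured 52.0, 49.8, 42.7 and 44.4 CPM in APP/PS1 females against 54.4 and 56.3 CPM in WT females. APP/PS1 males gave 42.6, 53.5, 46.8 and 49.7 CPM against 44.6 and 49.2 CPM in WT males. The female groups did not overlap, beside the 19.2% of genes given above, and the male groups did. The log2 fold change was -0.18 (SE 0.078, edgeR adjusted p = 0.480) in females and 0.0087 (SE 0.077, adjusted p = 0.999) in males, and the difference between the sexes was -0.19 (SE 0.11, adjusted p = 0.995).

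**Figure D5:**
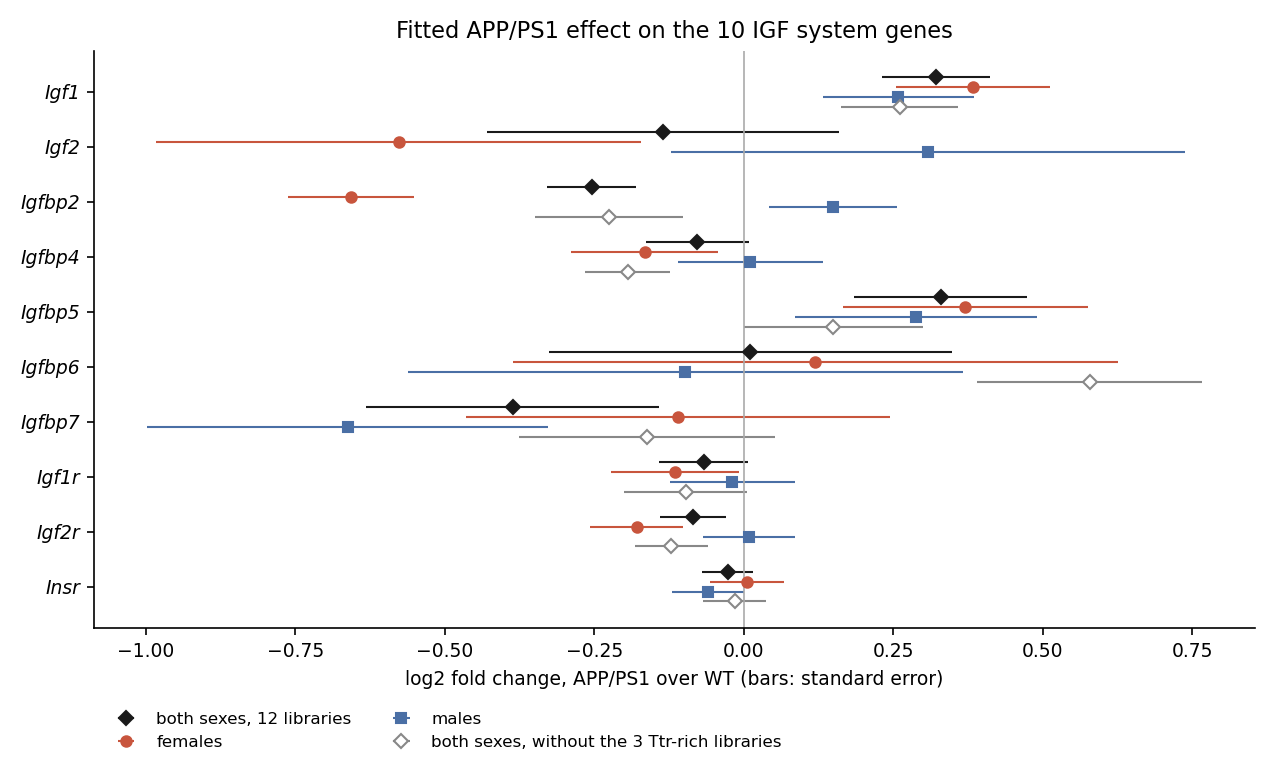
Fitted log2 fold change of each member, APP/PS1 over WT, with its standard error, averaged over the sexes (black diamonds), in females (red), in males (blue) and averaged over the sexes without the 3 Ttr-rich libraries (grey, absent for Igf2). Igf1 lies above 0 in all 4 fits shown, and the sexes lie on opposite sides of 0 for Igfbp2 (-0.66 and 0.15).

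Across the members, the ranges of the 8 APP/PS1 and 4 WT libraries overlapped for all 10, while 203 of 14008 genes (1.45%) did not overlap. Among the 9 libraries that were not Ttr-rich the genotypes again overlapped for all 10 members, beside 475 genes (3.39%) that did not. Averaged over the sexes 3 members had positive and 7 negative log2 fold changes, with a median of -0.072 against 0.0096 over all genes tested.

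The rest of the pathway showed no called gene in any of the 4 contrasts. Over all genes tested the shares called were 1.9% averaged over the sexes, 0.771% in females, 0.171% in males and 0% for their difference. No call among so few genes is near those shares and is not a result about the pathway. Of 14 further ligand, binding and protease genes, 9 were tested, with a median log2 fold change of -0.13 averaged over the sexes. Ins1, the insulin gene of pancreatic beta cells, had no reads in any library. Ins2 was at 0.557 to 1.56 CPM in the 3 Ttr-rich libraries and at 0 to 0.0461 CPM in the other 9, and was not tested. Igfbp3, the main IGF carrier in blood, was at 12.9 to 20.9 CPM. Of 40 signalling genes downstream of the receptors, 39 were tested, 12 with positive and 27 with negative log2 fold changes. Their median was -0.029, against 0.0096 over all genes tested. Inpp5d, which encodes the phosphatase SHIP1 of blood-lineage cells including microglia, had the smallest p among the 39, chosen after the values were seen. It was at 0.50 (SE 0.13, adjusted p = 0.125). The next, Irs2, an adaptor of both receptor kinases, was at -0.20 (SE 0.057, adjusted p = 0.171).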

How the data were processed

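Poly-A RNA of 12 right hippocampi, 1 per animal, was sequenced from directional libraries. Per the labels and the study's methods, Trimmomatic trimming, STAR alignment (GRCm38) and HTSeq counting were the authors' steps; versions, annotation and strand setting are not given in the sources used here. The authors deposited raw counts for 55573 genes, of which 55480 matched GENCODE M21, used here for positions and exon lengths. Counts were tested with edgeR 4.0.16 (R 4.3.3, limma 3.58.1) after the study's methods: genes reaching a log2 CPM of 1 in 3 or more libraries (14008 genes), upper-quartile scaling, 4 groups and 2 factors of unwanted variation, estimated from the genes ranked below the first 5000 in an initial test across groups. The gene number in those methods matches a CPM of 1 instead, which keeps 15521 genes and was run as an alternative, so the filter used here is stricter than the study's appears to have been. The quasi-likelihood test replaced the study's likelihood ratio test. P-values were adjusted by Benjamini-Hochberg over all 14008 genes, two-sided, at an FDR under 0.1. Igf1 levels (log2 of CPM plus 0.1) were compared by exact permutation. The code was tested on simulated data.

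The members and gene lists were chosen with earlier results of these data known. All members are named. For Igf1, Igf2 and Igfbp2 the 5 most correlated genes are named, and of the lists (other IGF genes, IGF signalling, choroid plexus, meninges, general and plaque-associated microglia, endothelium) some of the called genes or those listed first. Some items are not reported here. Libraries of a group differed by more than sampling noise (chi-square per degree of freedom 11.6 to 52.0 over 14 pairs). Alternatives were the likelihood ratio test, DESeq2 1.42.0, TMM scaling, other filters, fewer factors, a choroid plexus covariate, a replicate block, an FDR of 0.05 and leaving out libraries.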

Additional observations from a re-analysis of the deposited data

Results flagged for a closer look

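Igfbp2 in APP/PS1 female 1, at 67.1 CPM, and in APP/PS1 male 2, at 125 CPM, lay far above the other 3 libraries of their groups by Dixon's test. Both are Ttr-rich libraries. Igfbp5 in APP/PS1 male 1, at 238 CPM, lay apart from the other 3 males, which were at 213 CPM each. Of 20 groups of 4 tested (10 members in each APP/PS1 sex) 3 were flagged, and chance flags about 1 in 20.

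The effect of APP/PS1 on Igfbp2 differed between the sexes by -0.81 (log2, females minus males; unadjusted p = 1.46e-04), which did not pass adjustment over all genes with edgeR (adjusted p = 0.771). Without the 3 Ttr-rich libraries the difference was -0.29 (adjusted p = 0.969).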

How the results depend on the processing

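The members had 941 values under 24 other settings and, for Igf1, the microglial covariate given below, which was not planned. Of these, 846 kept their direction and side of the threshold, 73 changed sign, 10 lost and 12 gained a call. No sign change touched a called value, most were close to 0, and the cause was not tested. Averaged over the sexes, the likelihood ratio test called 3 members (Igf1 at 0.32, Igfbp2, Igfbp5), DESeq2 called 2 (Igf1 at 0.31, Igfbp2), and each called 1 for the difference between the sexes. The replicate block called 1 averaged over the sexes, Igfbp5 at 0.53 (adjusted p = 0.0421). In females 0 were called with no expression filter, no RUV factors, 1 RUV factor, the choroid plexus covariate, or without the Ttr-rich libraries with or without RUV factors. Without those libraries the Igf1 level difference was 0.29 and missed the threshold. With the mean of the 16 general microglial markers as a covariate, chosen after seeing the data, Igf1 averaged over the sexes was 0.14, but that mean did not overlap between the genotypes and 4 genes were called in all, so in that fit marker level and genotype cannot be told apart.

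Igfbp6 averaged over the sexes changed sign with the likelihood ratio test (-0.013), TMM scaling (-0.0026) and the replicate block (-0.11), Igf1r with the block (0.013; 0.096 in males), Igf2 with no RUV factors (0.23) or 1 (0.043), and Igfbp2 with no RUV factors (0.15). In females Insr was -0.011 with DESeq2, -0.0051 with TMM, -0.028 with no filter and -0.0097 with no RUV factors. In males Igfbp4 was -0.033 and Igf2r -0.023 with no filter, Igfbp4 was -0.0020 with no RUV factors and -0.0011 with 1, and Igfbp2 was -0.079 and Igf2r -0.013 with the choroid plexus covariate.

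Without the Ttr-rich libraries, Igfbp7 in females was 0.25, Igfbp2, Igfbp6 and Igf2r in males were -0.081, 0.0070 and -0.030, and the differences between the sexes of Igf1 and Igfbp5 were -0.070 and -0.25. With RUV factors dropped too, Igfbp7 and Igfbp5 in females were 0.30 and -0.026, Igfbp2 and Igf2r in males -0.077 and -0.011, and the difference of Igfbp5 was -0.32.

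Leaving out 1 library at a time called 0 to 2 members averaged over the sexes (2 without WT male 1), 0 to 1 in females and 0 to 1 in males. Averaged over the sexes, values ran from 0.25 to 0.42 for Igf1, -0.18 to 0.027 for Igfbp4, -0.29 to 0.53 for Igfbp6, -0.16 to 0.019 for Igf1r and -0.47 to 0.021 for Igf2. In females they ran from -0.35 to 0.065 for Igfbp4, -0.61 to 1.04 for Igfbp6, -0.59 to 0.28 for Igfbp7 and -0.039 to 0.034 for Insr. In males they ran from -0.34 to 0.39 for Igfbp2, -0.019 to 0.055 for Igfbp4, -0.25 to 0.077 for Igfbp6, -1.18 to 0.056 for Igfbp7, -0.19 to 0.17 for Igf1r and -0.050 to 0.069 for Igf2r. The difference between the sexes ran from -0.034 to 0.32 for Igf1, -0.34 to 0.076 for Igfbp4, -0.17 to 0.52 for Igfbp5, -0.65 to 1.02 for Igfbp6, -0.21 to 1.03 for Igfbp7 and -0.29 to 0.061 for Igf1r. Where 1 WT animal of a sex remained, it was assumed to vary like the other groups.

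Over all genes, calls averaged over the sexes numbered 266, against 503 with the likelihood ratio test, 173 without RUV factors, 66 without the Ttr-rich libraries and RUV factors, and 94 to 361 on leaving out 1 library. In females 108 became 398 with the likelihood ratio test, 296 with DESeq2, 205 with no filter, 67 without RUV factors, 31 without the Ttr-rich libraries and RUV factors, 63 at an FDR of 0.05 and 33 to 156 on leaving out 1 library. In males 24 became 222, 146, 48, 21, 12, 16 and 4 to 83 in the same order, and 39 without the Ttr-rich libraries. Libraries of the same replicate number did not deviate alike from their group means throughout (r -0.66 to 0.72, over 0.1 in 4 of 14 pairs). The highest r joined the Ttr-rich APP/PS1 male 2 and WT female 2. The 2 libraries of a WT group deviate as mirror images, so these values cannot decide whether replicate numbers paired the animals. With the replicate block 196, 79 and 18 genes were called. With 2 WT animals per sex, the smaller effects within a sex were not resolved at this size.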
